A study of Drosophila melanogaster with 60 samples.

Results

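The narrow H3K4me3 peaks of the male fly brain are the short tail of a shared peak set: intervals of at most 400 bp, measured as the end minus the start of each deposited peak, whose mean normalised read count over the 30 H3K4me3 libraries was at least 10. Of 14894 H3K4me3 peaks, 1906 met both limits. A further 303 peaks were as short but had a mean under 10, and 12607 peaks with a mean of at least 10 were longer than 400 bp. No test between genotypes or housing conditions entered the choice, although the limit on the mean is a limit on level. The mean includes every genotype, so a gain in a single genotype can carry a peak past the limit. This was so for both Prp4k peaks described below, and some other peaks with large gains had a CS mean under 10.

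H3K4me3 and RNA polymerase II (RNAPolII) were mapped by CUT&RUN, in which an antibody-tethered nuclease releases the DNA around its target from permeabilised cells. Each H3K4me3 library came from 15 dissected brains of Drosophila melanogaster males and each RNAPolII library from 30. Flies of 5 genotypes were kept in groups (GH) or alone (SH), with 3 biological replicates per genotype, housing condition and antibody, which makes 10 groups and 60 libraries. The labels give no age.

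CS is the Canton-S wild type. Or47b mutants carried the alleles Or47b2/3 and Or67d mutants were homozygous for Or67dGAL4, both in a w+/Y background, and each lacks an olfactory receptor that responds to fly-derived odours. The fru mutants carried fruLexA over fru4-40, also with w+/Y, and the dsx mutants carried dsxf00683-d07058 over dsxf01649-d09625 with w-/Y; fru and dsx encode transcription factors of the sex determination pathway. The labels name no cell-type-specific driver. A mutant line can also differ from Canton-S in the rest of its genome, and in every comparison with CS below the named mutation and the strain background cannot be told apart.

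Trimethylation of lysine 4 on histone H3 is laid down by COMPASS-type methyltransferases, which travel with the early transcription machinery, and its strongest and widest domains cover the first nucleosomes of active genes. Tudor, PHD and chromodomain proteins read the mark, and demethylases of the KDM5 family remove it. In brain tissue the mark sits at the promoters of housekeeping genes and of genes active in neurons or glia. Narrow or weak domains are also found at enhancers, alternative promoters, small RNA genes and low-use start sites, and a peak caller can split the edge of a broad domain into short pieces. An interval of 400 bp or less spans only a few nucleosomes. In whole brains, a mark present in fewer cells and a mark that is less dense in each cell cannot be told apart.

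The libraries held between 2309386 and 9269525 reads in H3K4me3 peaks. Narrow peaks held 0.754% to 1.12% of the signal of each library, or 23291 to 80717 reads, and the median narrow peak had 10 to 31 reads per library. All 10 neuronal marker genes examined had an H3K4me3 peak, the strongest peak of each gene having a mean between 27.8 and 1550, and 5 of 7 glial genes had one; no tested peak lay over repo, the glial transcription factor gene, or over nrv2. Peaks were also present at 7 of 10 muscle, 9 of 10 photoreceptor, 4 of 6 hemocyte, 4 of 5 fat body and 1 of 5 male germline genes. The part of these tissues in the results below was not tested.

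Values are normalised read counts, that is, reads in a peak divided by 1 size factor per library. Peak positions are those of the deposited table, and no source used here gives their genome build. Genes were assigned by overlap with gene spans of the RefSeq table of Release 6 plus ISO1 MT, and a peak over no gene is named by the nearest gene. The positions bear this out: 37.9% of the longer peaks covered a gene end, against 25.5% after all intervals were moved by 5000 bp.

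Most narrow peaks were weak. Their mean normalised read count ranged from 10.01 to 589 with a median of 13.3, against a median of 41.3 for the tested longer peaks. Of the 1906, 1238 (65.0%) had a mean under 15 and 1546 (81.1%) a mean under 20, while 81 reached 50 and 18 reached 100. The median length was 306 bp. The shortest were 141 bp at Jupiter, which encodes a microtubule-associated protein, 145 bp at Cph, which encodes a zinc-finger transcription factor, and 146 bp next to lncRNA:CR43363. Per 100 bp of peak the medians were 4.60 for narrow and 3.45 for longer peaks. The limits on length and mean partly set this comparison. In the class with a mean of 10 to 15 the medians were 3.91 and 2.32, and at 50 to 100 they were 23.5 and 3.43. Only above 100 was the order the opposite, at 40.1 and 44.7.

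The limits cut a continuous distribution. The 9 narrow peaks of exactly 400 bp had means of 10.4 to 108, and the 8 tested peaks of 401 bp had means of 11.5 to 38.7. At the other limit, the 3 weakest narrow peaks had means of 10.0115 to 10.0173, and the 3 strongest of the short peaks left out had means of 9.99384 to 9.99454.

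**Figure D1:**
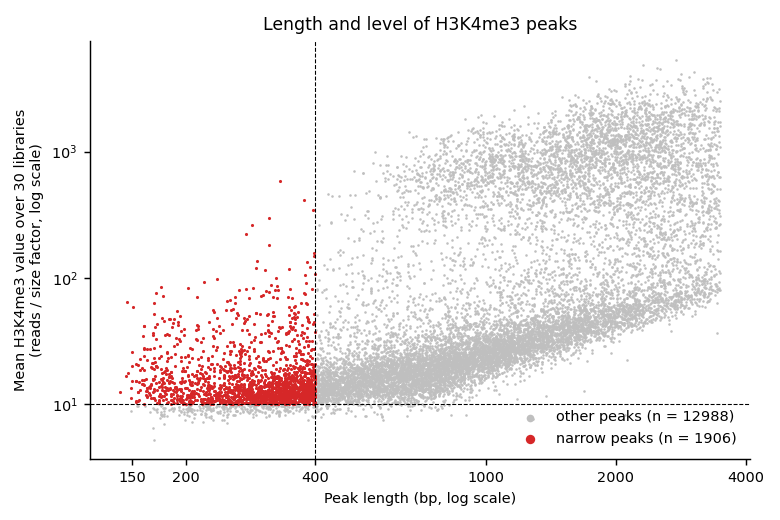
Length of each of 14894 H3K4me3 peaks in bp (log axis) against its mean normalised read count over 30 libraries (log axis), with narrow peaks in red, other peaks in grey and both limits dashed. Narrow peaks crowd towards the lower limit of 10, and 18 of 1906 reach 100.

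The narrow peaks were spread over the genome like the longer ones. Chromosome arm 3R held 477, 3L held 429, 2R held 405, 2L held 362 and X held 209, which is 11.0% of the narrow against 11.1% of the longer peaks; 15 lay on chromosome 4 and 9 on other sequences. Few covered a gene end: 123 of 1906 (6.45%), against 37.9% of longer peaks. With all intervals moved by 5000 or 50000 bp the shares were 8.45% and 7.76% for narrow and 25.5% and 23.6% for longer peaks, so the narrow peaks covered gene ends no more often than the moved intervals did. The share rose with level but stayed lower, at 8 of 18 (44.4%) for narrow peaks with a mean over 100 against 83.1% of longer peaks of that level. In the weakest class, with a mean of 10 to 15, narrow and longer peaks were alike, at 4.68% and 5.95%. The share over no gene was 21.0%, against 9.62% of longer peaks, and it was 20.1% against 21.4% in the weakest class.

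The genes under narrow peaks were long. A median of 22.0 kb was found for the gene under a narrow peak, the longest where a peak overlapped several, against 13.9 kb for longer peaks and 1.69 kb over all 17872 genes of the table. Longer peaks as weak as most narrow ones, with a mean of 10 to 20, covered genes with a median length of 26.5 kb, while the narrow peaks with a mean of at least 50 covered genes of 7.04 kb. A long gene offers more bases to overlap, and these lengths are given as a description.

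Altogether 1505 narrow peaks lay over a gene, 1464 of them over a protein-coding gene, 35 over long noncoding or antisense RNA genes alone and 163 over more than 1 gene. They touched 1285 genes, of which 271 had at least 2 narrow peaks and 26 at least 4. The cell-surface proteoglycan gene Sdc had 6, and 5 lay over each of the glucose transporter gene Glut1, the spinophilin gene Spn and the RNA-binding protein gene mub. Of the 1505, 1265 (84.1%) lay over a gene that also had a tested peak longer than 400 bp, and that gene's strongest longer peak was a median of 27.4 times as strong. At 19 narrow peaks the order was the opposite, the narrow peak exceeding every longer peak of its gene. Neighbouring peaks were about as common as elsewhere: the nearest other peak was longer than 400 bp and within 1000 bp at 27.6% of narrow and 25.05% of longer peaks.

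RNAPolII peaks overlapped 1492 narrow peaks (78.3%), nearly the share of longer peaks (77.9%). The 1389 RNAPolII peaks concerned were long, with a median of 5299 bp against 2255 bp for all RNAPolII peaks, and strong, with a median mean value of 282 against 97.6. A narrow peak that overlapped an RNAPolII peak was therefore in general a small interval within a much broader RNAPolII domain. A long RNAPolII peak offers more bases to overlap, and those over longer H3K4me3 peaks were not measured apart. These lengths and levels are thus not shown to be particular to narrow peaks.

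The strongest narrow peaks are described one by one. SamDC, which encodes S-adenosylmethionine decarboxylase of polyamine synthesis, carried the strongest, of 332 bp on 2L from 10339385 to 10339717. In CS its 6 libraries had a lowest value of 467, a median of 507 and a highest of 588. In Or67d the values were 602, 626 and 663. The lowest Or67d library thus stood above the highest CS library, and Or67d exceeded CS by 0.29 on the log2 scale (limma, adjusted p = 0.0189), while no other mutant differed from CS at this peak beyond the test's threshold. Strong peaks were often higher in Or67d: of 81 narrow peaks with a mean of at least 50, 24 were called higher and 2 lower. With a covariate for the distance between strong and weak peaks in each library, 1 narrow peak was called higher in Or67d. The Or67d gains at this and the next peaks are to be read with this limit.

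RpL39, a protein of the large ribosomal subunit, was the only one of 85 ribosomal protein genes with a narrow peak, on 2R from 24062039 to 24062415. CS libraries ran from 259 through a median of 332 to 400. The other genotypes had medians of 390 (Or47b), 499 (Or67d), 441 (fru) and 416 (dsx). Only the Or67d libraries, at 453 to 536, lay wholly above those of CS. The log2 difference from CS was 0.58 in Or67d (adjusted p = 8.57e-05), 0.39 in fru (adjusted p = 0.0281) and 0.36 in dsx (adjusted p = 0.0314).

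Next in level was a peak over CG32448, on 3L from 21827872 to 21828267, with CS at 259, 295 and 325 as lowest, median and highest values. The Or67d and dsx libraries, with medians of 397 and 391, were all above those of CS, with log2 differences of 0.43 (adjusted p = 0.00105) and 0.44 (adjusted p = 0.00172). They were followed by the peaks over CG18324 and its antisense gene asRNA:CR44368 (mean 298), CG34159 (261), CG12259 (222) and Polr3F, a subunit of RNA polymerase III (183). At CG12259 and Polr3F no mutant differed from CS past the test. Elk, a voltage-gated potassium channel gene, had a narrow peak of mean 157 on 2R from 17873777 to 17874175 that exceeded the gene's strongest longer peak, of mean 32.2. The 10 strongest were completed by the peak over the autophagy protease gene Atg4a and CG4629 (150) and the one nearest CG14563 (135).

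How precisely a narrow peak was measured followed its level. The standard deviation of log2(value + 1) among the replicates of a group had a median of 0.575 for narrow peaks with a mean of 10 to 15, which is a factor of 1.49. It was 0.471 at 15 to 20, 0.379 at 20 to 50 and 0.305 at 50 to 100. Longer peaks of the same levels gave 0.573, 0.499, 0.394 and 0.279. At a given level the spread was thus close in both classes of length. At the extremes, the CS values at CG7352 ran from 102 to 117 and those next to Slmap from 35.3 to 41.6, while those at Idgf3, an imaginal disc growth factor gene, ran from 0 to 30.2 and those at alpha-Man-IIb from 1.01 to 22.3. Among all narrow peaks, 41 had 0 reads in at least 1 library and 815 had at least 5 reads in every library.

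Over the listed genes of the nervous system the narrow peaks were mostly weak. Axon guidance and adhesion genes carried 46 over 29 genes, with a median mean of 11.9. Transmitter receptor genes carried 36 over 20 genes (12.7), transcription factor genes of neuronal identity 24 over 19 genes (13.4), ion channel genes 21 over 13 (14.2), synaptic genes 21 over 17 (14.0) and the Dpr and DIP cell-recognition genes 20 over 14 (12.4). Neuropeptide receptor genes carried 16 over 13 genes. Narrow peaks made up 14.2%, 15.9%, 10.9%, 16.2%, 13.8%, 14.9% and 16.2% of the tested peaks over these 7 lists in the order given, against 13.1% of all tested peaks. Long noncoding and antisense RNA genes carried 90, and small nuclear, nucleolar and transfer RNA genes 16. Only 3 of 186 chemoreceptor genes carried one, and none of the 3 was a mutated gene of this study. The fru gene itself carried a pair of narrow peaks and dsx, w, Or47b and Or67d carried none.

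The fru peaks did not differ from CS past the test in any mutant. At 3R from 18416723 to 18417083 the fru mutants ran from 10.03 to 27.6 with a median of 15.9, and CS from 9.29 to 29.2 with a median of 16.9. At 3R from 18480747 to 18481073 the fru mutants ran from 6.45 to 27.6 with a median of 11.7, and CS from 18.6 to 31.2 with a median of 22.5. The ranges overlapped at both, and the log2 differences of the fru mutants from CS were -0.00 (adjusted p = 0.997) and -0.86 (adjusted p = 0.154). The deposited positions do not say which part of fru the alleles change, so these values do not check the labels.

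Each mutant was compared with CS over all 14513 peaks with a mean of at least 10, with 6 libraries a side, limma on log2(value + 1), and Benjamini-Hochberg adjustment over all of them. A peak was called at an adjusted p under 0.05, two-sided. Fold changes are on the log2(value + 1) scale, which understates the change of weak peaks. All 4 comparisons use the same 6 CS libraries, so their results are not independent of each other.

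In the dsx mutants the largest change of any narrow peak was at Prp4k, which encodes a kinase that acts on the splicing machinery. The peak, on 3L from 209531 to 209725, had a lowest value of 211, a median of 230 and a highest of 243 in dsx, and of 1.74, 6.72 and 12.2 in CS. No library of another genotype exceeded 12.2. The means of CS, Or47b, Or67d and fru were 6.65, 6.15, 5.09 and 6.14, all under the limit on the mean. The peak passed that limit only with the dsx libraries included, so its place among the narrow peaks depends on the gain in dsx. The dsx mean was 228 ± 13.1 (SD, n = 6) against 6.65 ± 3.41 in CS, a log2 difference of 5.04 (SE 0.336, adjusted p = 9.64e-22).

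A companion peak lay 155 bp away, at 209213 to 209376, and ran from 68.1 to 108 in dsx and from 2.01 to 7.11 in CS, a log2 difference of 3.96 (adjusted p = 3.13e-13). It too passed the limit on the mean only with the dsx libraries included. Neither the gene's strongest longer peak nor RNAPolII was called. The strongest longer peak of Prp4k, at 210717 to 213307, had 2983 ± 212 in dsx and 2641 ± 212 in CS (log2 difference 0.18, adjusted p = 0.160). RNAPolII over the interval holding both narrow peaks had 500 ± 47.1 in dsx and 484 ± 15.02 in CS (log2 difference 0.04, adjusted p = 0.801).

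Another large gain in dsx was next to CG6951, on 3L from 20246006 to 20246274. Its values ran from 73.3 to 107 in dsx, with a median of 91.3, and from 9.14 to 24.0 in CS, with a median of 15.5, a log2 difference of 2.52 (adjusted p = 6.35e-13). The RNAPolII peak over it had a log2 difference of -0.15 (adjusted p = 0.7003). Smaller gains with no overlap of libraries were at Src64B, a Src-family kinase gene (1.37), hang, a zinc-finger gene known for ethanol tolerance (1.34), the synaptic adhesion gene Nlg2 (1.02), the axon degeneration gene Sarm at a transfer RNA gene (0.89) and CG1607 (0.86). Adjusted p was 1.55e-05 at hang and 0.00970 to 0.0366 at the other 4, which lost their calls with the covariate for the distance between strong and weak peaks in each library and in 3 to 7 of the 12 fits that left out 1 library. Sarm lost its call with TMM rescaling too.

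**Figure D2:**
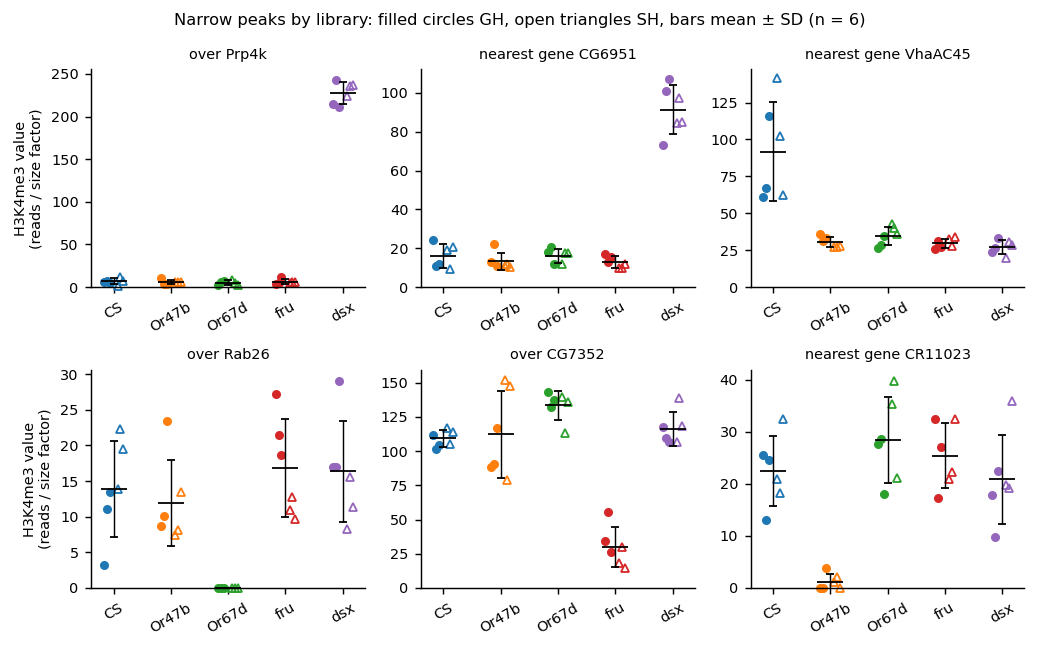
Normalised read counts of 6 narrow peaks in each H3K4me3 library by genotype, with filled circles for GH, open triangles for SH and bars for the mean and SD of 6 libraries. At Prp4k the dsx libraries lie at 211 to 243 and all others at or under 12.2; at CG7352 the fru libraries lie at 14.4 to 55.9 and those of CS at 102 to 117.

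Among the lower values in dsx, the peak on the unplaced sequence 211000022278716 from 1315 to 1536 ran from 24.9 to 52.1 in dsx and from 107 to 204 in CS, a log2 difference of -1.72 (adjusted p = 1.46e-14). Another on 211000022279675 had a log2 difference of -1.16, and one over ND-15, a subunit of respiratory complex I, and CG31974 had -0.84. The call at ND-15 and CG31974 (limma, adjusted p = 0.0201) was lost with quantile normalisation and with the covariate. It was also lost in 4 of the 12 fits that left out 1 library. Unplaced sequences are often repeats, and reads there can belong to several copies.

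Over all narrow peaks, 35 were called higher in dsx than in CS and 12 lower, or 2.47% of 1906; 5.40% of all tested peaks were called (3.42% higher and 1.98% lower). The split turned with the method, at 24 higher and 20 lower with TMM rescaling and 21 and 26 with edgeR. Of the 1906 narrow peaks, 20 were called with no overlap between the libraries of dsx and CS and 15 past 2-fold. Of all 14513 tested peaks, 281 (1.94%) and 117 (0.806%) were. The count of called narrow peaks depended on single libraries. It was 124 without CS GH replicate 3 and 87 without dsx SH replicate 1, and 20 without dsx SH replicate 3, 21 without CS SH replicate 2, 23 without CS GH replicate 2 or dsx GH replicate 3, and 28 without CS GH replicate 1. It was 16 once the difference between strong and weak peaks in each library was a covariate. The Prp4k pair, the peak nearest CG6951, the unplaced pair and hang kept their calls under every alternative.

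In the fru mutants the clearest change was a lower peak at CG7352, on 3R from 8347776 to 8348101. The 6 CS libraries lay within 102 to 117, the fru libraries between 14.4 and 55.9 with a median of 27.9. The means were 29.8 ± 14.8 in fru and 109 ± 6.10 (SD, n = 6) in CS, a log2 difference of -1.97 (SE 0.153, adjusted p = 9.05e-18). No longer H3K4me3 peak and no RNAPolII peak was found over this one.

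Also lower, with no overlap of libraries, were the peak over the glycerol channel genes Eglp2 and Eglp4 (4.52 ± 2.68 against 18.8 ± 8.64, log2 difference -1.89, adjusted p = 0.000120) and the one over CR18275 and CG32817 on X (7.93 ± 2.90 against 27.9 ± 7.94, log2 difference -1.72, adjusted p = 9.09e-08). At Eglp2 and Eglp4 the strongest longer peak of the gene had a log2 difference of -0.18 and RNAPolII one of 0.09. Further lower values, at CG31145 (-1.28), CG8087 (-1.18), the Notch coactivator gene mam (-1.06) and CG5953 (-0.94), had adjusted p between 0.0229 and 0.0425, and each lost its call in 6 to 8 of the 12 fits that left out 1 library.

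The largest gain in fru lay over ND-15 and lncRNA:CR44185, on 2L from 135104 to 135443. It ran from 32.2 to 56.3 in fru with a median of 35.4, and from 6.94 to 14.4 in CS with a median of 8.33, a log2 difference of 2.03 (adjusted p = 2.53e-05). The other genotypes had medians of 7.91 (Or47b), 8.29 (Or67d) and 5.74 (dsx), within the range of CS or below it. These medians and the CS mean of 9.27 lay under the limit of 10, which the peak passed with the fru libraries included. Its place among the narrow peaks thus depends on the gain in fru. Actn, the alpha-actinin gene, had a peak on X at 29.1 ± 7.61 in fru and 10.4 ± 4.52 in CS (log2 difference 1.46, adjusted p = 0.000532). A peak over CG42748 and lncRNA:CR43241 had 92.3 ± 16.2 against 43.2 ± 9.88 (1.09, adjusted p = 1.82e-05). Drak, a gene of a kinase acting on myosin light chain, stood at 1.28 (adjusted p = 0.0258), a call lost with edgeR and with DESeq2.

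In all, 25 narrow peaks were called higher in fru and 15 lower (2.10%; 2.20% of all tested peaks, 1.26% higher and 0.944% lower). Of the 1906 narrow peaks, 21 were called with no overlap of libraries and 22 past 2-fold. Of all 14513 tested peaks, 137 (0.944%) and 91 (0.627%) were. The total of called narrow peaks lay between 21 without CS SH replicate 2 and 69 without CS GH replicate 3. It was 23 without fru SH replicate 3 and 65 without fru SH replicate 1.

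The Or47b mutants had the fewest called narrow peaks, 5 higher and 7 lower than CS (0.63%; 0.806% of all tested peaks). Of the 1906 narrow peaks, 7 were called with no overlap of libraries and 9 past 2-fold. Of all 14513 tested peaks, 61 (0.420%) and 47 (0.324%) were. Without CS GH replicate 3 the count of called narrow peaks was 19. The largest gain lay over asRNA:CR44168 and CG34423, on 2R from 23358776 to 23358960, at 20.7 to 43.0 in Or47b and 3.38 to 11.3 in CS, a log2 difference of 1.88 (adjusted p = 2.85e-05). A peak over CG32767 on X was 1.24 higher (adjusted p = 0.00812), a call lost without CS GH replicate 1.

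Nearly all signal was absent in Or47b from a peak near the end of 2L, from 5571 to 5946, with CR11023 as its nearest gene: its values ran from 0 to 3.89, against 13.1 to 32.5 in CS (log2 difference -3.66, adjusted p = 1.77e-14). RNAPolII over it was lower too, at 7.85 ± 7.66 against 41.6 ± 10.8 (log2 difference -2.75, adjusted p = 4.35e-05). The Or47b mean of the narrow peak, 1.19, lay under 3 reads per library, so -3.66 does not give the size of the loss. At RyR, which encodes the calcium release channel of the endoplasmic reticulum, a narrow peak on 2R from 8862476 to 8862873 had 15.1 ± 4.54 in Or47b and 32.7 ± 8.02 in CS (log2 difference -1.10, adjusted p = 0.00181). The gene's strongest longer peak, 219 ± 38.9 against 219 ± 19.0, gave a log2 difference of -0.02, while the short RNAPolII peak over the narrow one gave -0.94 (adjusted p = 0.000473). CG33263 had a peak of 6.55 ± 5.39 in Or47b and 19.3 ± 4.41 in CS (-1.73, adjusted p = 0.00206), a call lost without Or47b GH replicate 1.

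The Or67d mutants had the most called narrow peaks, 72 higher and 144 lower (11.3%). Of all tested peaks 30.0% were called (17.5% higher and 12.5% lower). Of the 1906 narrow peaks, 37 were called with no overlap of libraries and 93 past 2-fold. Of all 14513 tested peaks, 881 (6.07%) and 428 (2.95%) were. The count of 216 narrow peaks fell to 106 without CS GH replicate 2 and to 117 without CS SH replicate 2.

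Direction went with level in Or67d. Of 81 narrow peaks with a mean of at least 50, 24 were higher and 2 lower. Of 1238 with a mean of 10 to 15, 9 were higher and 125 lower. Longer peaks showed the same order, with 2408 higher and 297 lower of 5690 with a mean of at least 50, and 5 higher and 222 lower of 1361 at 10 to 15. The log2 distance between strong and weak peaks within a library was 5.58 to 5.99 in Or67d and 4.92 to 5.73 in CS, and with that distance as a covariate 8 narrow peaks were called, 7 of them among the 216. With quantile normalisation 132 were called higher and 13 lower, with TMM rescaling 41 and 171, and with edgeR 36 and 170. The split between higher and lower thus changed with the scaling, and the part of library quality in it was not tested.

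**Figure D3:**
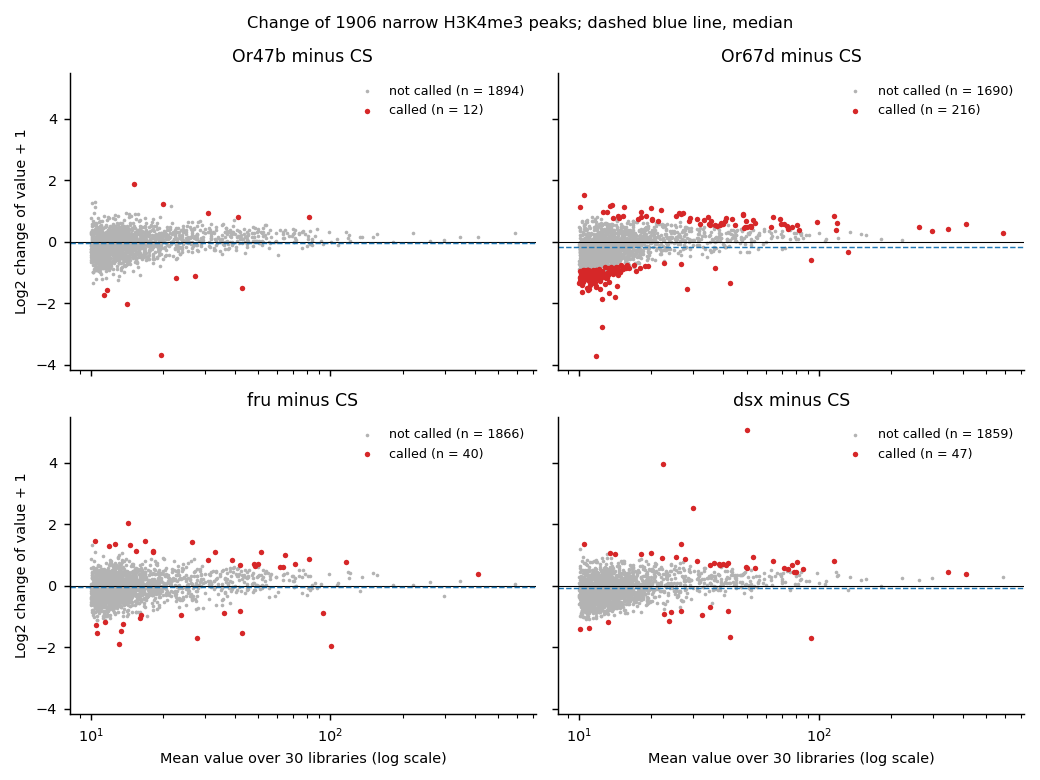
Log2 difference from CS of every narrow peak against its mean normalised read count (log axis), 1 panel per mutant, with called peaks coloured. In Or67d called weak peaks lie mostly below 0 and called strong ones above; in dsx the Prp4k pair stands at 5.04 and 3.96.

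**Figure D4:**
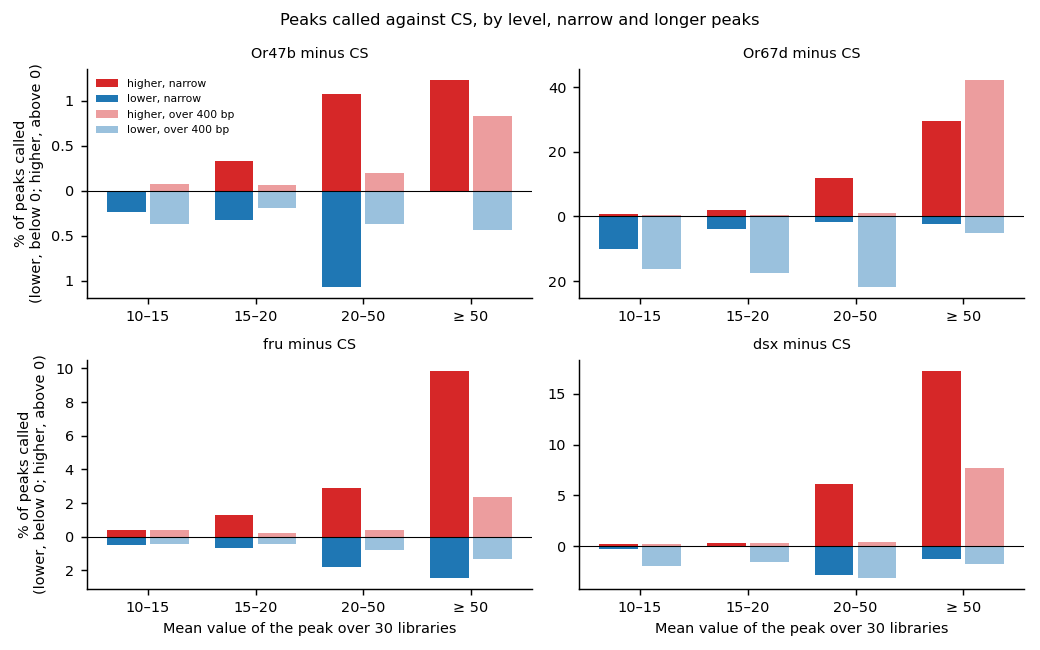
Percent of peaks called against CS by class of mean normalised read count, 1 panel per mutant; bars above 0 are peaks called higher and bars below 0 peaks called lower, dark for narrow peaks and pale for those longer than 400 bp. In Or67d 32.1% of narrow and 47.5% of longer peaks with a mean of at least 50 are called.

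Single peaks in Or67d stood out from this pattern. The peak inside Rab26, a small GTPase gene of synaptic vesicles, on 3L from 21324683 to 21324958, had 0 reads in all 6 Or67d libraries and 3.20 to 22.3 in CS. With a floor of 3 reads per library the Or67d level was at least 3.88-fold lower (adjusted p of the fit 7.89e-13). RNAPolII over it was 0.168 ± 0.412 against 40.2 ± 11.4 (log2 difference -5.14, adjusted p = 3.58e-16), while the strongest longer H3K4me3 peak of Rab26 gave 543 ± 51.1 against 528 ± 46.5. The peak nearest the adenosine deaminase gene Adgf-A, on 3L from 17768742 to 17768996, had 1.09 ± 1.27 in Or67d and 11.4 ± 3.71 in CS (-2.76, adjusted p = 1.11e-09). The much longer RNAPolII peak over it, from 17765484 to 17777452, gave -0.31 (adjusted p = 0.00305). The Or67d means of the narrow Adgf-A peak (1.09) and of RNAPolII over Rab26 (0.168) lay under 3 reads per library. Their log2 differences therefore do not give the size of the loss.

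Other Or67d changes with no overlap of libraries were smaller. Higher were peaks at Octalpha2R, an octopamine receptor gene (50.6 ± 10.5 against 28.8 ± 6.71, log2 difference 0.80, adjusted p = 0.00396), and Shal, an A-type potassium channel gene (137 ± 23.0 against 77.4 ± 17.9, 0.83, adjusted p = 1.76e-05). Lower were peaks at nAChRalpha1, a nicotinic receptor subunit gene (4.86 ± 2.06 against 15.9 ± 3.50, -1.58, adjusted p = 0.000956), at 5-HT7, a serotonin receptor gene (-1.32, adjusted p = 0.00479), at Cow, a gene of a Wingless-binding secreted protein (-1.62, adjusted p = 0.00121), and at olf413 (-1.49, adjusted p = 0.00151). All 6 lost their call with the covariate for the distance between strong and weak peaks, as did 18 of the 21 Or67d changes followed through the alternatives. Rab26 and the peaks nearest Adgf-A and VhaAC45 kept it.

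Read by gene list, and against 11.3% of narrow and 30.0% of all tested peaks called in Or67d, calls in Or67d were 5 of 46 for axon guidance and adhesion genes (1 higher, at beat-IIIb), 4 of 36 for transmitter receptors (1 higher), 4 of 21 for ion channels (1 higher), 5 of 21 for synaptic genes (0 higher) and 3 of 24 for transcription factors of neuronal identity (1 higher, at vg). These are shares of 10.9%, 11.1%, 19.0%, 23.8% and 12.5%, all below that of all tested peaks. The synaptic genes with a lower peak, named after their values were seen, were Rab26, Nlg1, which encodes a neuroligin, ChAT, which makes acetylcholine, Vmat, which loads monoamines into vesicles, and Ddc, an enzyme of dopamine and serotonin synthesis. The median log2 difference of the synaptic peaks was 0.07, against -0.06 over all tested peaks. In dsx, where 2.47% of narrow and 5.40% of all tested peaks were called, the synaptic list had 2 of 21 called, Nlg2 and dlg1, a postsynaptic scaffold gene (97.4 ± 9.77 against 71.9 ± 7.88, 0.43, adjusted p = 0.0428). Among the 20 Dpr and DIP peaks limma called 0 in each mutant, with 1, 2, 1 and 0 at an unadjusted p under 0.05 in Or47b, Or67d, fru and dsx. On these 20 edgeR called 1 in Or67d and DESeq2 called 0.

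Some narrow peaks differed from CS in several mutants, and since the CS libraries are shared, the values of each genotype are set side by side. At the peak nearest VhaAC45, a gene of an accessory subunit of the vacuolar proton pump, on 2R from 9210345 to 9210718, CS ran from 60.8 through a median of 85.0 to 141. Medians in the mutants were 29.8 (Or47b), 35.3 (Or67d), 29.4 (fru) and 27.6 (dsx), and no mutant library exceeded 42.6. The log2 differences from CS were -1.49, -1.32, -1.53 and -1.67, with adjusted p between 2.92e-10 and 5.20e-07. RNAPolII over it gave -0.05, -0.01, -0.02 and -0.07.

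The peak nearest Dro, the gene of the antimicrobial peptide drosocin, went the other way. It lies on 2R from 14746766 to 14747160, and CS ran from 35.2 to 64.2 with a median of 51.8. The medians were 97.7 (Or47b), 75.4 (Or67d), 90.9 (fru) and 87.8 (dsx), and the lowest mutant library had 66.6, above every CS library. The log2 differences were 0.81, 0.56, 0.85 and 0.76, all past the test; the Or67d call was lost with the covariate.

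At hang, on X from 16428483 to 16428818, CS ran from 11.2 to 14.4 with a median of 13.5, a narrow range. Medians were 20.7 in Or47b, 24.6 in Or67d, 34.2 in fru and 33.9 in dsx, and the lowest library of any mutant had 15.7. The difference from CS was 0.90 in Or67d (adjusted p = 0.00316), 1.40 in fru (5.03e-06) and 1.34 in dsx (1.55e-05), while Or47b did not pass the test. The gene's longer peak did not differ past the test in any of these 3, with log2 differences of -0.42, 0.17 and -0.45.

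Shal, on 3L from 19580844 to 19581149, had CS values of 54.4 to 107 with a median of 77.7, and medians of 95.4 (Or47b), 140 (Or67d), 130 (fru) and 131 (dsx). Only the Or67d libraries lay wholly above CS. The log2 differences were 0.83, 0.77 and 0.80 in Or67d, fru and dsx, each past the test, and the gene's longer peak gave 0.19, 0.03 and 0.14. Weaker peaks with calls in several mutants lay at Src64B, whose CS values were 2.01 to 5.92, at CG32767, and next to the spindle checkpoint gene Bub1.

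On the X chromosome narrow peaks were more often called higher than lower. In fru 10 of 209 were higher and 3 lower (6.22%, against 2.56% of all 1604 tested X peaks). In dsx 12 were higher and 1 lower (6.22%, against 6.05%), and in Or67d 21 were higher and 4 lower (11.96%, against 29.6%). The median log2 difference of the narrow X peaks was 0.16 in fru, 0.18 in dsx and 0.22 in Or67d, and that of all tested X peaks 0.07, 0.14 and 0.20, while over all tested peaks of the genome it was -0.02, -0.02 and -0.06. In Or47b 2 were higher and 0 lower (0.957%, against 0.125%), with medians of 0.16 for narrow and 0.05 for all tested X peaks. A shift in the same direction was thus present over all tested X peaks, which include the narrow ones. The narrow median lay furthest above that of all tested X peaks in Or47b and fru.

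At most called narrow peaks with a tested longer peak on the same gene, the strongest such peak was not called in the same direction. It was available at 27 of 47 called peaks in dsx and was itself called in the same direction at 3. The figures were 2 of 22 in fru, 0 of 4 in Or47b and 39 of 124 in Or67d, where a further 26 were called in the opposite direction. Of all longer tested peaks 5.85% were called in dsx, 2.22% in fru, 0.833% in Or47b and 32.8% in Or67d, in either direction. The shares in dsx and fru lay above these, on 3 and 2 peaks. In Or67d the share lay above only with both directions counted.

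RNAPolII under called narrow peaks was called in the same direction at 2 of 41 in dsx, 0 of 31 in fru, 3 of 10 in Or47b and 4 of 168 in Or67d, and in the opposite direction at none of these. Of all tested RNAPolII peaks 1.84% were called in dsx, 1.04% in fru, 0.560% in Or47b and 1.08% in Or67d. The shares under called narrow peaks were above these in dsx, Or47b and Or67d, on few peaks. Under the called peaks in fru all RNAPolII log2 differences lay between -0.47 and 0.27, and in dsx between -0.50 and 0.18. The pairs called together in dsx were at Lerp, with log2 differences of -0.96 for the narrow peak and -0.40 for RNAPolII, and at Ldaf1, with -0.81 and -0.42. Besides the Rab26, Adgf-A, RyR and CR11023 peaks given above, they were in Or67d at CG9297 (1.18 and 0.61) and, in both Or47b and Or67d, on the unplaced sequence 211000022279918 (-2.01 and -1.62, and -1.78 and -1.68). Those at Lerp and Ldaf1 and on this sequence were named after their values were seen. The RNAPolII peak at Lerp ran on 3R from 26857962 to 26868706, over Lerp, mir-1012, IntS12, ball and His2Av. The one at Ldaf1 ran on X from 1898733 to 1903640, also over arm, CG32801 and antisense RNA genes. Both were far longer than the narrow peaks they covered.

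**Figure D5:**
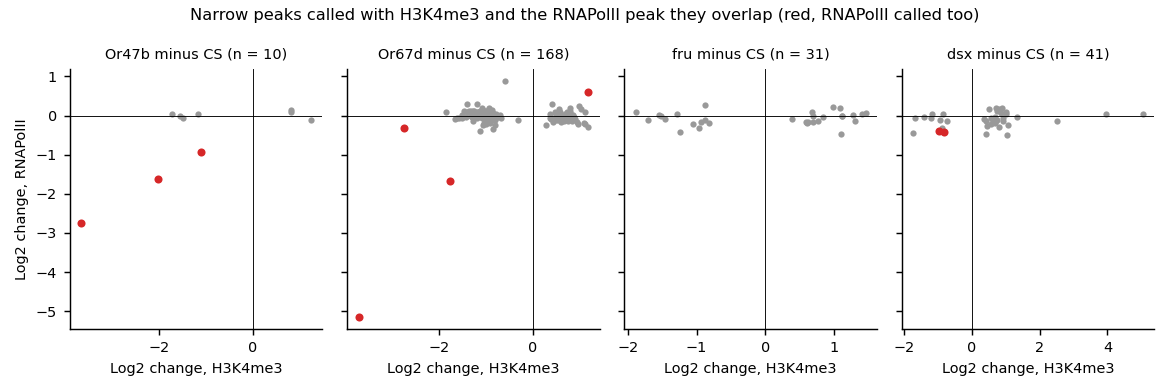
Log2 difference from CS of called narrow H3K4me3 peaks (x) against that of the RNAPolII peak over them (y), by mutant. Most points lie near 0 on the RNAPolII axis, and the Rab26 peak in Or67d lies at -5.14.

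Considered by themselves, the 1389 RNAPolII peaks over narrow peaks differed from CS at 7 in Or47b (3 higher), 15 in Or67d (6 higher), 11 in fru (5 higher) and 21 in dsx (10 higher), or 0.504%, 1.08%, 0.792% and 1.51%. Over all 21076 tested RNAPolII peaks the shares were 0.560%, 1.08%, 1.04% and 1.84%, so those over narrow peaks were near the background. The counts were not stable: with the covariate they were 34, 51, 49 and 73, with only the compared libraries in the fit 32 in fru and 72 in dsx, and without single libraries they fell to 9 in Or67d and 5 in fru. The RNAPolII peak over Cip4, a gene of an F-BAR protein of membrane bending, had 103.5 ± 6.04 in fru and 214 ± 19.6 in CS (log2 difference -1.04, adjusted p = 6.25e-11). In dsx the one over PH4alphaMP, PH4alphaNE1, CG31371 and PH4alphaSG1, a cluster with prolyl 4-hydroxylase genes, had 719 ± 44.4 against 420 ± 26.4 (0.77, adjusted p = 3.45e-08). At dimm, a transcription factor gene of neuroendocrine cells, it had 107 ± 16.8 in dsx and 75.5 ± 10.2 in CS (0.49, adjusted p = 0.0206).

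Housing left no called narrow peak in the main fit. Between SH and GH males limma called 0 of 1906 within each of the 5 genotypes and 0 over all genotypes with 15 libraries a side, and edgeR and DESeq2 called 0 in each of the 6 comparisons. At an unadjusted p under 0.05 there were 81 in CS, 169 in Or47b, 101 in Or67d, 55 in fru, 54 in dsx and 115 over all genotypes, which is 4.25%, 8.87%, 5.30%, 2.89%, 2.83% and 6.03% of the narrow peaks. Over all tested peaks the same shares were 2.57%, 26.3%, 3.89%, 3.65%, 2.36% and 5.82%. Of all tested peaks 0% were called in each comparison except Or47b, where 0.0345% were (0.00689% higher in SH, 0.0276% lower, and 0.0276% past 2-fold).

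The lowest adjusted p was 0.0862, in Or47b. There, the peak nearest lncRNA:CR43363 had 70.2 ± 17.5 in SH and 39.1 ± 7.99 in GH (SD, n = 3; log2 difference 0.82, adjusted p = 0.0987), and the peak nearest Dro had 112 ± 6.59 and 75.2 ± 13.3 (0.58, adjusted p = 0.110). At nAChRalpha1 SH had 5.61 ± 2.81 and GH 14.7 ± 2.44 (-1.33, adjusted p = 0.115). Without Or47b SH replicate 1 the Or47b count was 18, of which 16 lower in SH, and it was 22 when only the Or47b libraries entered the fit. With the replicate number as a block it was 58, of which 44 lower in SH, but the numbers were not taken as pairs. The log2 distance between strong and weak peaks was 5.52 to 6.09 in the Or47b SH libraries and 5.03 to 5.43 in GH. With that distance as a covariate the Or47b count was 0, as in the main fit. The part of this distance in the Or47b housing values was not tested. Tests of whether the housing effect differed between a mutant and CS called 0 narrow peaks in each of 4 comparisons by limma, with 135 (Or47b), 75 (Or67d), 50 (fru) and 69 (dsx) at an unadjusted p under 0.05. These are 7.08%, 3.93%, 2.62% and 3.62% of the narrow peaks, against 11.4%, 2.97%, 2.00% and 2.47% of all tested peaks. RNAPolII over narrow peaks gave 0 calls between SH and GH over all genotypes, with 29 of 1389 at an unadjusted p under 0.05.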

How the data were processed

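The deposited tables hold 1 signal value per peak and library; the values are normalised counts, which the authors made by dividing reads by 1 size factor per library, as the values themselves show: within 0.01 reads, all were whole multiples of 1 step per library. The step was less sure in 6 of 60 libraries. Per the submitters' processing notes, the tools were MACS2, Bowtie2, ChIPseeker, Trim Galore and DESeq2, with no versions or order; no source used here gives the genome build, read counter or peak merging. All 30 libraries of an antibody share 1 peak set.

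Peaks with a mean of at least 10 entered limma 3.58.1 (R 4.3.3) on log2(value + 1), with 10 group means and a trended variance. Of RNAPolII peaks, those under a narrow peak are reported. edgeR 4.0.16 (quasi-likelihood) and DESeq2 1.42.0 ran on recovered reads as alternatives.

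The narrow peaks, gene lists and tests were chosen with earlier results of these data known. Named peaks were, by a written rule, those of highest mean, of largest called change without overlap of libraries, called in several mutants, at listed or mutated genes, shortest, at the limits, and of largest or smallest CS spread. Columns of CS carry other replicate numbers than the titles and were matched through the library descriptions.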

Additional observations from a re-analysis of the deposited data

How the results depend on the processing

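Calls of narrow peaks against CS stayed within 1.5 times of the reported counts with a pseudocount of 5, no filter, TMM rescaling, edgeR and DESeq2. Quantile normalisation gave 19 in Or47b (13 higher, 6 lower), 76 in fru (57 and 19) and 87 in dsx (78 and 9), against 145 in Or67d. In dsx the split between higher and lower was 24 and 20 with TMM rescaling and 21 and 26 with edgeR. A covariate for the distance between strong and weak peaks in each library gave 8 in Or67d (1 higher) and 16 in dsx (11 higher). For RNAPolII over narrow peaks it gave 34 in Or47b, 51 in Or67d, 49 in fru and 73 in dsx. With only the compared libraries in the fit, SH against GH in Or47b gave 22, and RNAPolII gave 32 in fru and 72 in dsx. Without the 3 RNAPolII libraries of largest total value, an alternative chosen after seeing the data, RNAPolII gave 30 in fru and 75 in dsx. Leaving out the 2 H3K4me3 libraries with no value under 4 reads, also chosen after seeing the data, moved no count past 1.5 times. In each case the cause was not tested.

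Leaving out 1 library at a time gave 10 to 19 calls in Or47b, 106 to 315 in Or67d, 21 to 69 in fru and 20 to 124 in dsx. For SH against GH it gave 0 to 18 in Or47b, 0 to 1 in Or67d (1 without Or67d GH replicate 2) and 0 in the other genotypes. RNAPolII gave 6 to 8, 9 to 12, 5 to 11 and 14 to 24 in Or47b, Or67d, fru and dsx; in Or67d it was 9 without CS GH replicate 2, CS SH replicate 1, Or67d GH replicate 1 or Or67d GH replicate 2, and in fru 5 to 7 without CS GH replicate 2, CS SH replicate 1, any fru GH replicate or fru SH replicate 1. Of 67 named changes, 33 kept their call under all alternatives that leave out no single library and 27 also without any 1 library; 30 lost it with the covariate, 2 with quantile normalisation, and none changed direction.

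With the replicate number as a block, calls were 23 in Or47b, 66 in fru, 103 in dsx, 274 in Or67d, and 58 for SH against GH in Or47b. Same-numbered libraries correlated over 0.1 at every number in 2 of 45 pairs of groups for H3K4me3 and 1 of 45 for RNAPolII, and 17 of 30 and 12 of 30 libraries were closest to their own number, so the numbers were not taken as pairs. Depth limits the weak majority: at a median of 10 to 31 reads per narrow peak, the median standard error of a log2 difference from CS was 0.32.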
